A study of Mus musculus with 18 samples.

Results

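GABA (gamma-aminobutyric acid) receptor subunits, the genes that make, move and degrade GABA, and genes that mark inhibitory interneurons were followed in RNA sequencing data from the mouse dentate gyrus. The set holds 27 genes of the 24015 rows in each table, found by matching a list of gene symbols, and all 27 had a tested value in each of the 3 tables. It comprises 11 receptor subunits, 5 genes of GABA synthesis, transport and breakdown, 3 genes of receptor anchoring and chloride transport, and 8 interneuron genes. Every mouse was an adult C57BL/6 animal of 8 weeks, and tissue from 18 single mice was sequenced, 3 in each of 6 groups. In the groups EYFP_OE and cFos_OE the overexpressed protein was EYFP, a fluorescent reporter, or c-Fos, which forms part of the transcription factor AP-1. In the other 4 groups the construct was a short hairpin RNA, shRNA-Ctrl or shRNA-cFos, the latter named for the Fos gene, and tissue was collected at E0, which the tables name sham, or at E1, in a series on neuronal activation. The sources used here do not say which promoter drove each construct, how it was delivered, which cells it reached or what time E1 stands for.

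GABA is the main inhibitory transmitter of the adult brain. GABA-A receptors are chloride channels assembled from alpha, beta and gamma or delta subunits, and the subunit mix sets where they sit and how they respond. GABA-B receptors are G-protein coupled and need both Gabbr1 and Gabbr2. In the dentate gyrus, granule neurons receive GABA from local interneurons, and delta-containing receptors outside their synapses carry a steady inhibitory current that restrains firing.

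The values are the authors' own comparisons, so no value per library was analysed and whether single animals of 2 groups overlapped cannot be seen. Each log2 fold change is given ± its standard error (SE), and a gene is called at a Benjamini-Hochberg adjusted p under 0.05 from the authors' DESeq2 fit with 3 libraries a group. Group levels are estimates in normalized counts, computed from the authors' deposited mean count and the fold change without shrinkage, and carry no error. The p-values come from the DESeq2 fit to 3 animals a group, and the spread of a single gene between animals could not be seen. In bulk tissue, fewer cells of a type and less RNA per cell cannot be told apart. Fos itself rose at E1 by 3.36 ± 0.14 with shRNA-Ctrl and by 2.33 ± 0.15 with shRNA-cFos, according to the authors' deposited tables, a difference of -1.03 ± 0.20 (adjusted p = 1.1e-05). With overexpression the deposited value was 3.34 ± 0.20, which is strongly shrunken toward 0. Without shrinkage it was 6.02, from an estimated 835 with EYFP_OE to 54056 with cFos_OE. The SE of Fos lay near the largest of that comparison, so the 6.02 and both levels are uncertain. The E1 values without shrinkage were 3.58 with shRNA-Ctrl and 2.55 with shRNA-cFos. The estimated E0 level of Fos from the authors' deposited tables, once the hairpin tables were scaled to each other, was 178 with shRNA-Ctrl and 230 with shRNA-cFos. Without the scaling it was 170 with shRNA-cFos, so the direction at E0 turns with the scaling and neither level carries an error. Mean normalized counts of the members ran from 32.7 to 14218 in the authors' deposited shRNA-Ctrl table, from 23.6 to 10668 in the shRNA-cFos table and from 27.6 to 11385 with overexpression.

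Because c-Fos acts through AP-1 sites, the bases upstream of the members' transcription starts were read from RefSeq (GRCm38.p6), where 21 of the 27 members had an entry, with 29 starts in all. The AP-1 motif TGANTCA, searched on both strands over the 250 bases before the start, was found at 2 of these 29 starts (6.90%), against 2217 of 32851 starts of all genes (6.75%). The starts with a match belonged to Lhx6, an interneuron transcription factor gene, and Slc12a5, the neuronal chloride exporter gene. The cyclic AMP response element TGACGTCA and the Egr motif GCGTGGGCG were found at 0 of the 29 starts, against 1.55% and 0.54% of all starts. The search covers these letters in this window only. Shown are bases 250 to 101 before the start, with the AP-1 match in capitals, for both genes with a match and for Gabra4, the member whose E1 response differed most between hairpins and whose start has no match. The Lhx6 stretch lies at chr2:36105509-36105658 on the minus strand, with its match beginning 181 bases before the start. The Slc12a5 stretch lies at chr2:164960596-164960745 on the plus strand, with its match beginning 162 bases before the start. The Gabra4 stretch lies at chr5:71658409-71658558 on the minus strand.
Lhx6: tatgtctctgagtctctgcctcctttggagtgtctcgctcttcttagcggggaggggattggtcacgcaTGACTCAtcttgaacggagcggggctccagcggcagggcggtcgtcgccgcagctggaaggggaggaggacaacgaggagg
Slc12a5: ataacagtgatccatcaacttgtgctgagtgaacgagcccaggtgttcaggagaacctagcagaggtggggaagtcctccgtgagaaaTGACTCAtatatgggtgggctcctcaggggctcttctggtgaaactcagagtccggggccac
Gabra4: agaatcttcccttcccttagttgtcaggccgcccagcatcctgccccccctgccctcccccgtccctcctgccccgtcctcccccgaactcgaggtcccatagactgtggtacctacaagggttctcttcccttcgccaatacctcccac

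With the control hairpin, those receptor subunit genes that were called at E1 were mostly lower, and the called genes of GABA synthesis were higher. Among the 11 receptor subunits, 5 were called lower and 1 higher, while by sign 6 of the 11 were positive and 5 negative. The glutamate decarboxylase genes Gad1 and Gad2 and the vesicular transporter gene Slc32a1 all rose. Of the 27 members, 11 were called in the authors' deposited table (40.7%), against 33.0% of the 15675 genes tested. By direction, 6 were higher and 5 lower, against 16.8% and 16.2% of all genes. Of the 11, Gabra3 and Gabrd changed by at least 1.5-fold. The median log2 fold change was 0.00 over the receptor subunits, 0.25 over synthesis, transport and breakdown and 0.31 over the interneuron genes in the authors' deposited table, beside 0.01 over all tested genes.

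Gabrd, which encodes the delta subunit of receptors outside the synapse, had the lowest fold change of the set with shRNA-Ctrl. Its estimated level from the authors' deposited table was 795 at E0 and 395 at E1, a log2 fold change of -0.92 ± 0.17 (adjusted p = 4.0e-07). Gabra4, the alpha subunit gene that pairs with delta in granule neurons, was estimated at 2559 and 1743 from the authors' deposited table, and fell by 0.53 ± 0.11 on the log2 scale (adjusted p = 2.2e-05). Both genes of this receptor type were thus lower at E1 with the control hairpin. Gabrb2, a beta subunit gene, was estimated at 5164 and 3648 from the authors' deposited table and had a log2 fold change of -0.49 ± 0.10. Gabra5, an alpha subunit gene prominent in the hippocampus, was estimated at 3614 and 2896 from the authors' deposited table, with a log2 fold change of -0.31 ± 0.10 (adjusted p = 0.012). Gabbr2, the GABA-B subunit that couples to G proteins, was estimated at 7153 and 5452 from the authors' deposited table, with a log2 fold change of -0.38 ± 0.08 (adjusted p = 8.7e-06). Its partner Gabbr1, which binds GABA, stood at 0.03 ± 0.06 in the authors' deposited table and was not called.

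Gabra3 was the receptor subunit gene that rose with shRNA-Ctrl. Its estimated level from the authors' deposited table was 290 at E0 and 569 at E1, a log2 fold change of 0.90 ± 0.15 (adjusted p = 7.5e-08), the highest of the 27 members there. Gabra2, Gabrb1, Gabrg1 and Gabrg3 had log2 fold changes from 0.00 to 0.29 in the authors' deposited table, and none was called. Gabra4 and Gabrb1 lie head to head and share 46 exonic bases on opposite strands in the GENCODE M21 annotation of GRCm38. Gabrb1 stood at 0.09 ± 0.08 in the authors' deposited table beside the -0.53 of Gabra4.

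Among the genes of GABA synthesis and packaging, Gad1 was estimated at 5981 at E0 and 7131 at E1 from the authors' deposited table, and rose by 0.25 ± 0.09 (adjusted p = 0.015). Gad2 was estimated at 2104 and 2701 from the authors' deposited table, and rose by 0.34 ± 0.13 (adjusted p = 0.037). Slc32a1, which loads GABA into vesicles, was estimated at 1266 and 1559 from the authors' deposited table, and rose by 0.29 ± 0.09 (adjusted p = 0.0069). These are increases of 1.19-fold, 1.27-fold and 1.22-fold in the authors' deposited table. Slc32a1 shares 697 exonic bases, 24.9% of its exons, with the antisense gene model Gm14205 in GENCODE M21, and with the strand of counting not given their reads cannot be told apart. Slc6a11, an astrocytic GABA transporter gene, stood at -0.14 ± 0.10 in the authors' deposited table, and Abat, the transaminase gene that degrades GABA, at -0.02 ± 0.07. Neither was called.

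Of the interneuron genes, Lhx6, a transcription factor of interneurons born in the medial ganglionic eminence, rose by 0.37 ± 0.12 (adjusted p = 0.0070) in the authors' deposited table, from an estimated 349 to 454. Reln, the gene of the secreted glycoprotein reelin, rose by 0.29 ± 0.07 (adjusted p = 0.00036) in the authors' deposited table, from an estimated 1179 to 1446. All 8 interneuron genes had a positive fold change there, but the other 6 were not called. Among these, Dlx6 and Dlx2, homeobox genes of forebrain interneurons, stood at 0.57 ± 0.24 (adjusted p = 0.054) and 0.41 ± 0.18 (adjusted p = 0.062) in the authors' deposited table. Pvalb, the calcium buffer of fast-spiking interneurons, stood at 0.10 ± 0.14, and Calb2, which encodes calretinin, at 0.32 ± 0.22 in the authors' deposited table. Dlx1 and Dlx5 stood at 0.27 ± 0.16 and 0.22 ± 0.19 there. Gphn, the gene of the receptor anchor gephyrin, Slc12a2, a chloride importer gene, and Slc12a5 lay between -0.14 and 0.17 in the authors' deposited table, and 0 of the 3 was called.

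**Figure D1:**
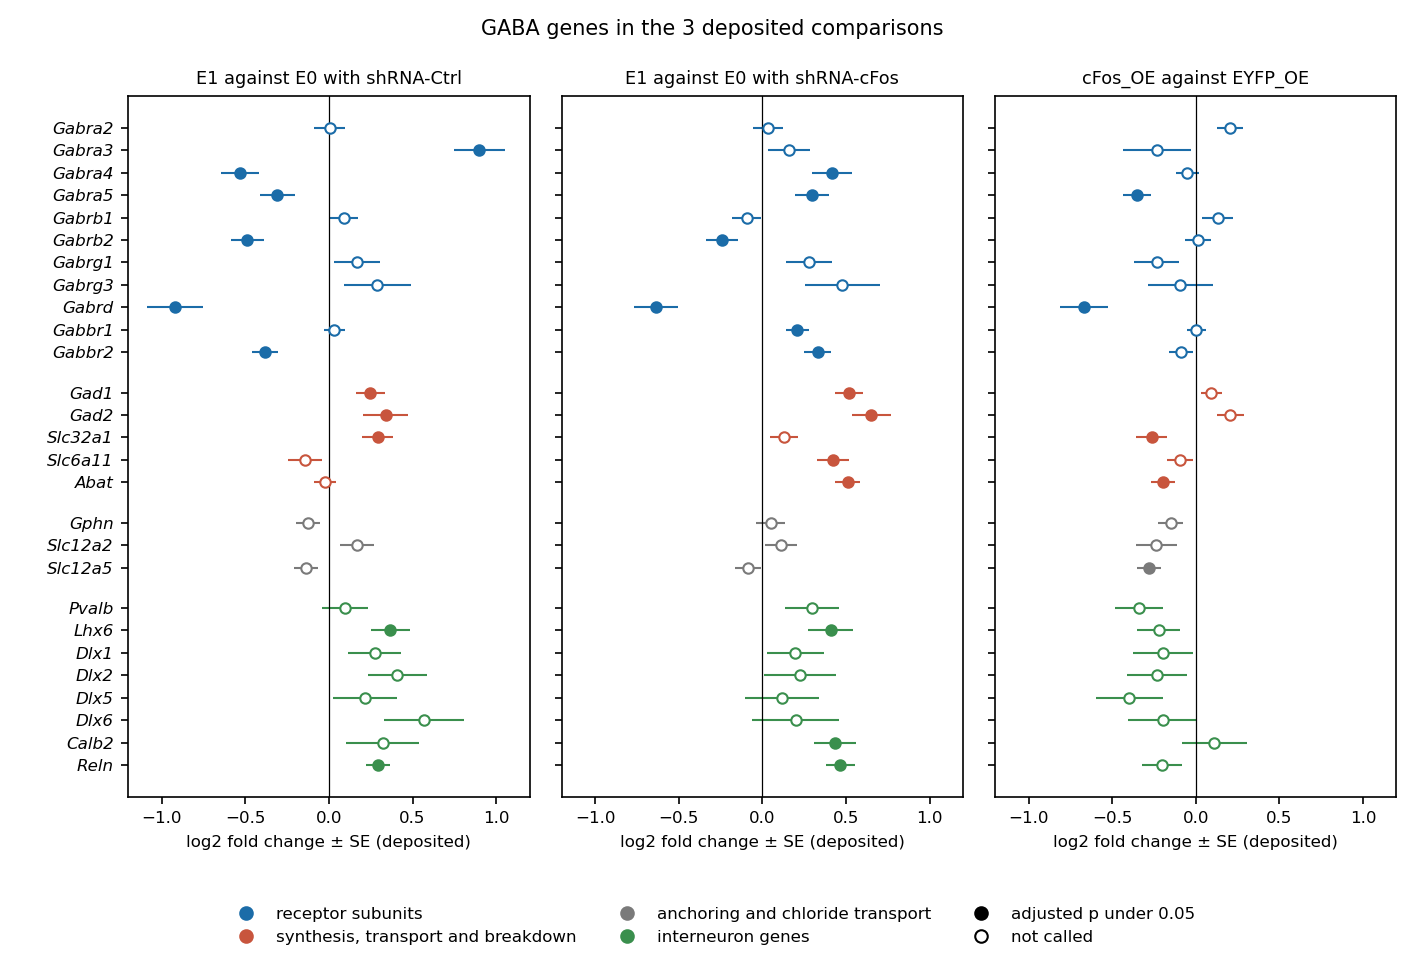
Deposited log2 fold changes (x axis, points, with bars of 1 SE) of the 27 members (rows, coloured by role) in the 3 comparisons, with filled points at an adjusted p under 0.05. Gabrd is the filled point furthest to the left in each panel, at -0.92, -0.63 and -0.67, and the 8 interneuron genes lie right of 0 in both hairpin panels.

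With the hairpin named for c-Fos, more of the set rose at E1 and receptor subunits lay on both sides. Of the members in the authors' deposited table, 11 were higher and 2 lower, against 16.3% and 11.7% of the 14388 genes tested. Together 48.1% of the members were called, beside 28.1% of all genes. The 2 that fell were Gabrd and Gabrb2. A change of at least 1.5-fold was reached by Gad2 and Gabrd. The median log2 fold change was 0.21 over the receptor subunits, 0.51 over synthesis, transport and breakdown and 0.26 over the interneuron genes in the authors' deposited table, beside -0.003 over all tested genes.

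Gabrd was estimated at 484 at E0 and 302 at E1 on the scale of the authors' deposited shRNA-cFos table, a log2 fold change of -0.63 ± 0.13 (adjusted p = 2.3e-05). Gabrb2 had a log2 fold change of -0.24 ± 0.09 (adjusted p = 0.041) in the authors' deposited table, from an estimated 3877 to 3263. Gabra4 moved up here, from an estimated 1079 to 1464 in the authors' deposited table, and rose by 0.42 ± 0.12 (adjusted p = 0.0028). So did Gabra5, by 0.30 ± 0.10 (adjusted p = 0.018) in the authors' deposited table, from an estimated 2147 to 2662. Both GABA-B genes rose, Gabbr1 by 0.21 ± 0.07 (adjusted p = 0.0091) and Gabbr2 by 0.33 ± 0.08 (adjusted p = 0.00039) in the authors' deposited table. Gabra3 stood at 0.16 ± 0.13 in the authors' deposited table and was not called, nor were Gabra2, Gabrb1, Gabrg1 and Gabrg3, at -0.09 to 0.48.

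Gad1 was estimated at 3797 at E0 and 5500 at E1 in the authors' deposited table, and rose by 0.52 ± 0.08 (adjusted p = 1.7e-08). Gad2 was estimated at 1325 and 2133 in the authors' deposited table, and rose by 0.65 ± 0.12 (adjusted p = 6.1e-07), the highest of the set in this comparison. Abat rose by 0.51 ± 0.08 (adjusted p = 5.3e-10) in the authors' deposited table, from an estimated 2110 to 3030. Slc6a11 rose by 0.42 ± 0.10 (adjusted p = 0.00011) in the authors' deposited table, from an estimated 1815 to 2461. Here the genes of GABA uptake and breakdown rose together with those of its synthesis. Slc32a1 stood at 0.13 ± 0.08 in the authors' deposited table and was not called.

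Reln rose by 0.47 ± 0.09 (adjusted p = 2.2e-06) in the authors' deposited shRNA-cFos table, from an estimated 814 to 1135. Lhx6 rose by 0.41 ± 0.13 (adjusted p = 0.012) there, from an estimated 264 to 358, and Calb2 by 0.43 ± 0.12 (adjusted p = 0.0032), from an estimated 1059 to 1458. Pvalb and the 4 Dlx genes lay between 0.12 and 0.30 in the authors' deposited table, and none was called. The 3 anchoring and chloride genes lay between -0.09 and 0.11, and 0 of 3 was called.

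The question of whether the E1 response itself depended on the hairpin was addressed by the difference of the log2 fold changes, which share no library. Of the 27 members, 6 differed (22.2%), against 23.8% of the 14386 genes tested in both of the authors' deposited tables. The share is thus close to that of genes at large. Responses with shRNA-cFos were higher for 5 members and lower for 1, beside 12.9% and 11.0% of all genes. The 5 higher were Gabra4, Gabra5, Gabbr2, Slc6a11 and Abat, and the lower was Gabra3.

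Gabra4 had the largest difference, 0.95 ± 0.16 (adjusted p = 3.2e-07), computed from the authors' deposited tables. Gabbr2 followed with 0.72 ± 0.11 (adjusted p = 1.6e-08) and Gabra5 with 0.61 ± 0.15 (adjusted p = 0.00047), also from the authors' deposited tables. These 3 were lower at E1 with shRNA-Ctrl and higher with shRNA-cFos, a pattern of opposite calls held by 303 of all genes tested in both tables (2.11%). Slc6a11 differed by 0.57 ± 0.14 (adjusted p = 0.00059) and Abat by 0.53 ± 0.10 (adjusted p = 4.4e-06), computed from the authors' deposited tables. Gabra3 differed by -0.74 ± 0.20 (adjusted p = 0.0018), its increase being smaller with shRNA-cFos.

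The differences of the genes that fell or rose with both hairpins did not pass the threshold. Gabrd differed by 0.29 ± 0.21, with a 95% interval of -0.13 to 0.70, and Gabrb2 by 0.25 ± 0.13, with -0.02 to 0.51, computed from the authors' deposited tables. Gad1 differed by 0.27 ± 0.12 (adjusted p = 0.082) and Gad2 by 0.31 ± 0.18 (adjusted p = 0.20), computed from the authors' deposited tables. For Lhx6 the difference was 0.04 ± 0.18, with a 95% interval of -0.31 to 0.39, and for Reln 0.18 ± 0.11, with -0.05 to 0.40, from the authors' deposited tables. The 8 interneuron genes had 0 differences called and a median difference of -0.02, against a median of 0.19 over the receptor subunits and 0.01 over all genes. The intervals of Dlx2, Dlx5 and Dlx6 each spanned more than 1 log2 unit, from -0.73 to 0.36, from -0.67 to 0.48 and from -1.06 to 0.32, so sizeable differences were not detectable at these counts. Across the 27 members the hairpin responses had a Pearson correlation of 0.46 and a Spearman correlation of 0.28, a description over genes measured in the same libraries within each arm.

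**Figure D2:**
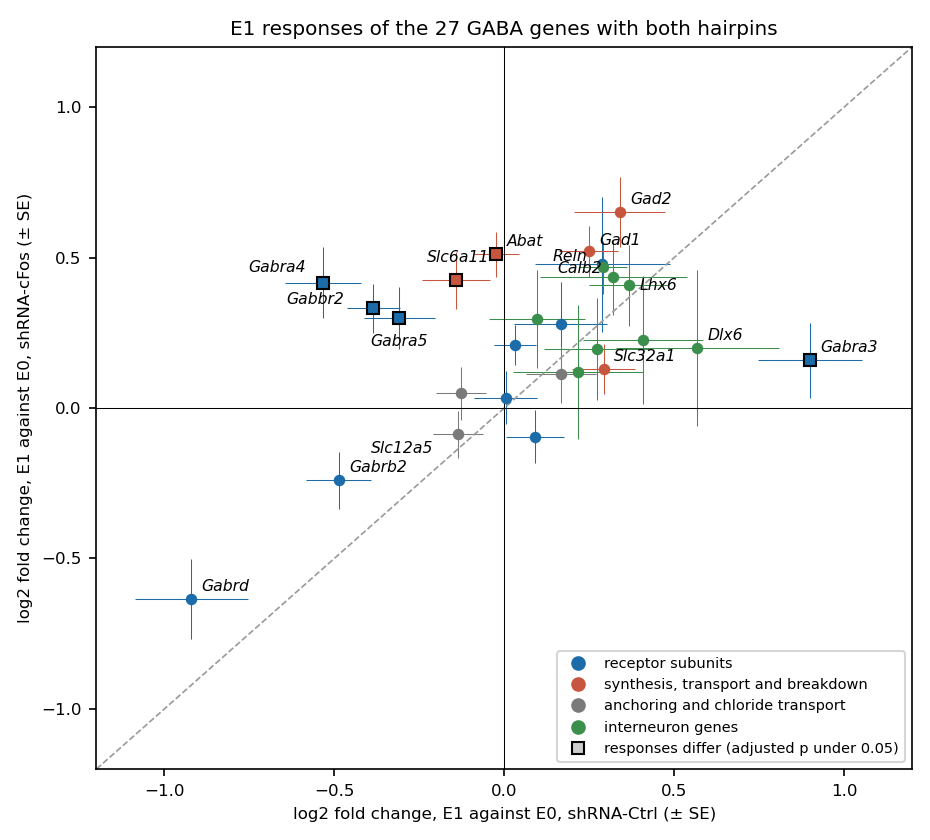
Log2 fold change at E1 with shRNA-Ctrl (x axis) and shRNA-cFos (y axis) for the 27 members, with bars of 1 SE and the line of equal response dashed. Black-edged squares mark the 6 members whose responses differed, with Gabra4, Gabbr2 and Gabra5 at the upper left and Gabra3 at the far right.

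Levels set side by side across the hairpin tables show where these differences lay. The tables were normalized separately, so shRNA-cFos levels were scaled by the median E0 ratio of 12406 genes, and the ratios carry no error and no test. Gabra4 was estimated at 2559 at E0 with shRNA-Ctrl and 1455 with shRNA-cFos, and at 1743 and 1974 after E1, based on the authors' deposited tables. The larger part of its difference lay at E0, with a log2 ratio of -0.81 against 0.18 at E1. For Gabra3 the E0 levels were 290 and 454 and the E1 levels 569 and 510, a log2 ratio of 0.65 at E0 and -0.16 at E1, from the authors' deposited tables. Gabra5 and Gabbr2 had ratios of -0.32 and -0.39 at E0 and of 0.31 and 0.34 at E1, and Abat of -0.26 and 0.29, so their differences were shared between both states. Slc6a11 had -0.14 at E0 and 0.45 at E1, the larger part at E1. Without the scaling each of these ratios is lower by 0.43, which moves the larger part to E0 for Gabra5, Gabbr2, Abat and Slc6a11, and to E1 for Gabra3.

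**Figure D3:**
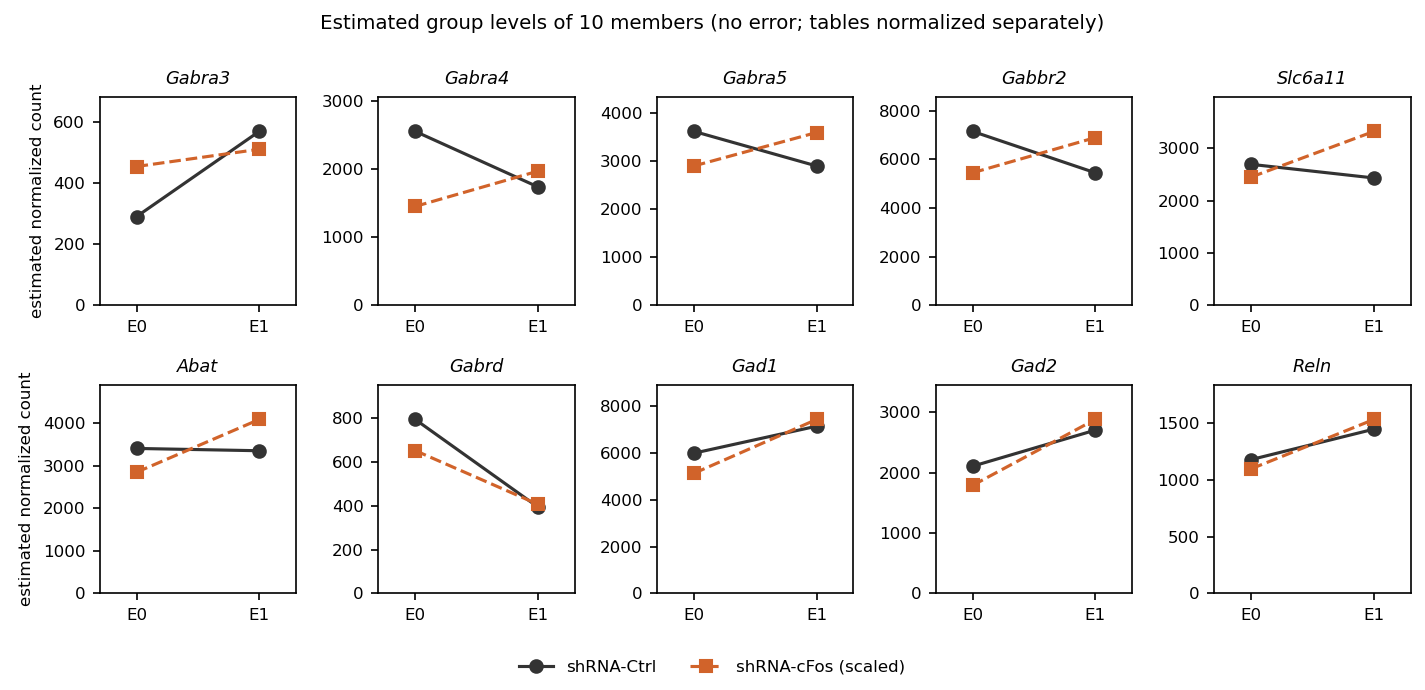
Estimated normalized counts (y axes, from 0, 1 scale per gene) at E0 and E1 for 10 members with shRNA-Ctrl (circles) and shRNA-cFos (squares, scaled to the shRNA-Ctrl table), with no error available. Gabra4, Gabra5 and Gabbr2 descend with shRNA-Ctrl and ascend with shRNA-cFos, whereas Gabrd descends and Gad1, Gad2 and Reln ascend with both.

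Overexpression of c-Fos was followed by fewer changes in the set, and the 5 called were lower. Of the 27 members in the authors' deposited table, 5 were lower and 0 higher, against 5.86% and 7.10% of the 15827 genes tested. The 18.5% of members called compares with 13.0% of all genes, and Gabrd alone of the 5 changed by at least 1.5-fold. The median log2 fold change was -0.09 over the receptor subunits, -0.09 over synthesis, transport and breakdown and -0.21 over the interneuron genes in the authors' deposited table, beside -0.01 over all tested genes.

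Gabrd was estimated at 549 with EYFP_OE and 320 with cFos_OE from the authors' deposited table, a log2 fold change of -0.67 ± 0.14 (adjusted p = 7.6e-05). It is the one member that was lower in each of the 3 comparisons, which 46 of the 14341 genes tested in all of them were (0.32%). Gabra5 was estimated at 3143 and 2436 from the authors' deposited table, with a log2 fold change of -0.35 ± 0.09 (adjusted p = 0.00069). Slc12a5, whose product exports chloride and so keeps GABA inhibitory, was estimated at 9902 and 8091 from the authors' deposited table and fell by 0.28 ± 0.07 (adjusted p = 0.0016). It was not called at E1 with either hairpin, at -0.14 ± 0.07 and -0.09 ± 0.08 in the authors' deposited tables.

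Slc32a1 and Abat had smaller decreases near the threshold. Slc32a1 was estimated at 1102 with EYFP_OE and 909 with cFos_OE from the authors' deposited table, with a log2 fold change of -0.26 ± 0.09 (adjusted p = 0.038). Abat was estimated at 3633 and 3156 from the authors' deposited table, with a log2 fold change of -0.20 ± 0.07 (adjusted p = 0.049). After centring on the median of all genes the adjusted p of Abat was 0.061 and that of Gabra2, at 0.20 ± 0.08 as deposited, was 0.043, so these calls trade places. Among genes with a mean of at least 50 both were called, Gabra2 at an adjusted p of 0.046 and Abat at 0.042, so a count with no higher member depends on the setting. Gad1 stood at 0.09 ± 0.06 and Gad2 at 0.21 ± 0.08 (adjusted p = 0.072) in the authors' deposited table, with neither called. Gabra4 stood at -0.05 ± 0.07 and Gabra3 at -0.23 ± 0.20 there, so the subunits that changed at E1 with shRNA-Ctrl were not called with c-Fos overexpression, apart from Gabrd and Gabra5.

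Of the 8 interneuron genes, 7 had a negative fold change with cFos_OE and 0 was called in the authors' deposited table. Dlx5 stood at -0.40 ± 0.20 (adjusted p = 0.21), Pvalb at -0.34 ± 0.14 (adjusted p = 0.10), Lhx6 at -0.22 ± 0.13 and Reln at -0.20 ± 0.12 in the authors' deposited table. Calb2, at 0.11 ± 0.19, was the exception in sign. Gphn and Slc12a2 stood at -0.15 ± 0.08 and -0.24 ± 0.12 in the authors' deposited table, also without a call.

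Over the 3 comparisons 11 members were called in none, 5 in 1, 9 in 2, and 2 in all 3, namely Gabrd and Gabra5. Of the 14341 genes tested in all 3 tables, 46.4% were called in none, 33.5% in 1, 16.8% in 2 and 3.32% in all 3. Gad1, Gad2, Lhx6 and Reln were higher at E1 with both hairpins, as were 6.16% of all genes tested in both tables. Gabrd and Gabrb2 were lower with both, as were 4.21% of all genes.

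Other genes of the GABA system were counted in lists of their own, to be read against all tested genes, of which 16.8% were higher and 16.2% lower with shRNA-Ctrl, 16.3% and 11.7% with shRNA-cFos, and 7.10% and 5.86% with overexpression. Other interneuron genes rose at E1 for 13 of 30 tested members and fell for 0 with shRNA-Ctrl, and for 14 and 0 with shRNA-cFos, with medians of 0.23 and 0.31 in the authors' deposited tables. The shares called higher were thus 43.3% and 46.7%. Those with the largest changes included Vip (0.65 ± 0.16 with shRNA-Ctrl) and Crhbp (0.63 ± 0.19 with shRNA-Ctrl) in the authors' deposited table, both expressed by subsets of interneurons. With shRNA-cFos these stood at 0.34 ± 0.20 and 0.39 ± 0.21 in the authors' deposited table and were not called. The neuropeptide genes Sst (0.42 ± 0.14 and 0.53 ± 0.11) and Npy (0.58 ± 0.14 and 0.55 ± 0.13) rose with both hairpins, shRNA-Ctrl first, in the authors' deposited tables. With c-Fos overexpression 8 of 31 fell (25.8%) and 1 rose (3.23%) in the authors' deposited table, a median of -0.22. The one that rose was Npy, at 1.18 ± 0.11, and Cck (-0.88 ± 0.10) and Lamp5 (-0.78 ± 0.11) were among those that fell there. Cck and Calb1, which is on this list too, are also expressed by principal neurons of the hippocampus.

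Among partners of GABA receptors and inhibitory synapses, the calls among 25 tested were 11 higher and 3 lower with shRNA-Ctrl, 11 higher and 0 lower with shRNA-cFos, and 2 higher and 5 lower with overexpression in the authors' deposited tables. Kctd12, an auxiliary subunit of GABA-B receptors, rose by 1.19 ± 0.08 and 0.92 ± 0.07 at E1 in the authors' deposited shRNA-Ctrl and shRNA-cFos tables. Bdnf and Npas4, activity-induced genes that act on inhibitory synapses, rose with both hairpins, Bdnf by 2.58 ± 0.10 and 2.30 ± 0.08 and Npas4 by 2.08 ± 0.23 and 1.45 ± 0.25 in the authors' deposited tables. With overexpression Npas4 had the lowest value of the list, -1.38 ± 0.19 (adjusted p = 4.2e-11), and Bdnf was not called at 0.11 ± 0.14 in the authors' deposited table. Nlgn2, the neuroligin of inhibitory synapses, stood at -0.01 ± 0.09 with shRNA-Ctrl and rose by 0.69 ± 0.09 with shRNA-cFos, according to the authors' deposited tables. Of the other GABA-A subunit genes 4 were tested with shRNA-Ctrl, of which 3 fell and Gabrq rose, according to the authors' deposited table. Gabrq stood at 0.82 ± 0.27 there, at a mean of 23.1 normalized counts. With shRNA-cFos 0 of 4 was called. With overexpression 1 of 5 was called, the epsilon subunit gene Gabre (0.86 ± 0.19), at a mean of 10.7 normalized counts in the authors' deposited table.

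Other genes of GABA metabolism and transport split, with 2 of 12 higher and 3 lower with shRNA-Ctrl, 3 higher and 2 lower with shRNA-cFos and 0 higher and 3 lower with overexpression in the authors' deposited tables. The difference of their E1 responses, shRNA-cFos minus shRNA-Ctrl, was called higher for 7 of 12 and lower for 2, beside 12.9% and 11.0% of all genes. The GABA transporter genes Slc6a12 (-1.61 ± 0.29) and Slc6a13 (-1.16 ± 0.29) had the lowest values with shRNA-Ctrl in the authors' deposited table, and were not called with shRNA-cFos, at -0.04 ± 0.26 and 0.08 ± 0.24. With shRNA-Ctrl both standard errors lay near the limit of 0.29, so their levels are uncertain. Slc6a12 had a mean of 24.7 normalized counts there, with an estimated 6.79 at E1. Choroid plexus markers were negative for 4 of 4 tested with shRNA-Ctrl, of which 1 was called, and their summed level went from 325 to 192 there and from 261 to 248 with shRNA-cFos, from the authors' deposited tables. Their part in the transporter values was not tested. The glutamine synthetase gene Glul rose by 0.40 ± 0.08 with shRNA-cFos and had a log2 fold change of -0.48 ± 0.07 with overexpression in the authors' deposited tables. Other chloride transport genes were called higher for 2 and lower for 2 of 11 with each hairpin, and for 1 and 0 of 12 with overexpression in the authors' deposited tables. With shRNA-Ctrl that is 18.2% in each direction, close to genes at large. These included Clcn3, a chloride transporter gene of vesicles and endosomes, which rose by 0.28 ± 0.09 and 0.37 ± 0.08 at E1 with shRNA-Ctrl and shRNA-cFos.

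**Figure D4:**
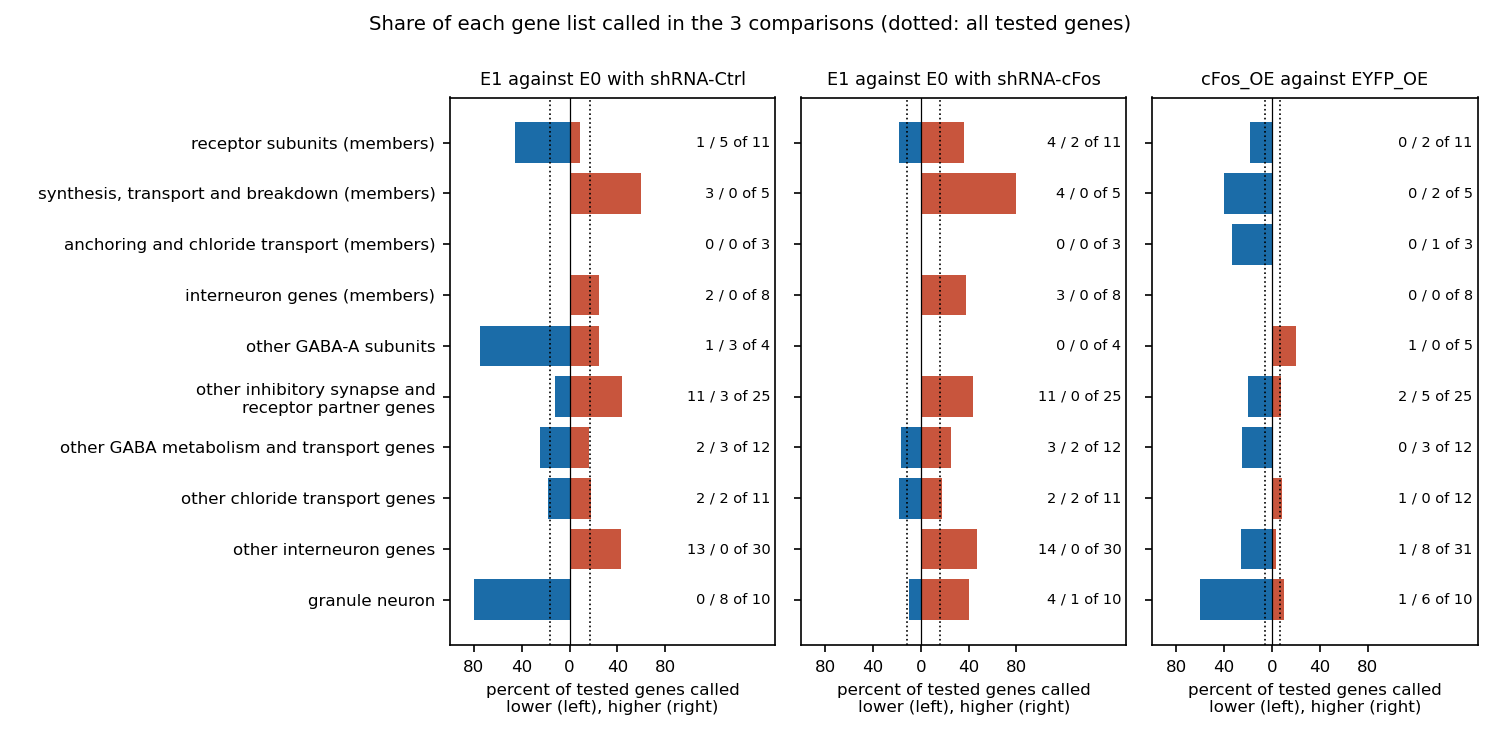
Percent of tested genes called lower (bars to the left) and higher (bars to the right) for the 4 role groups of the members, 5 lists of other GABA genes and the granule neuron markers, with higher / lower of tested printed at the right. Dotted lines give the share of all tested genes, and other interneuron genes show 13 / 0 of 30 and 14 / 0 of 30 with the hairpins and 1 / 8 of 31 with overexpression.

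Markers of the cells that hold these genes moved too. Granule neuron markers, such as Prox1 and Dsp, were called lower for 8 of 10 and higher for 0 with shRNA-Ctrl, higher for 4 and lower for 1 with shRNA-cFos, and higher for 1 and lower for 6 with overexpression in the authors' deposited tables. Their medians were -0.60, 0.07 and -0.33, and none of the 10 was at 0. The summed estimated level of the list went from 25893 to 16663, from 12375 to 13333 and from 22195 to 20031 normalized counts in the authors' deposited tables. The difference of their E1 responses, shRNA-cFos minus shRNA-Ctrl, was called higher for 7 of 10 and lower for 0, with a median of 0.70. Of all genes, 12.9% were called higher and 11.0% lower for that difference. The receptor subunit medians were 0.00 with shRNA-Ctrl, 0.21 with shRNA-cFos and -0.09 with overexpression. The part of the granule markers in the receptor subunit values was not tested. Mossy cell markers, of cells that also express Calb2, rose for 4 of 8 with shRNA-Ctrl and for 0 of 7 with shRNA-cFos, with summed levels of 6277 to 6259 and of 4850 to 5308. With overexpression 2 of 9 rose and 3 fell, and the sum went from 5553 to 5082. Cajal-Retzius markers, of cells that express Reln and Calb2, rose for 1 and fell for 1 of 8 with shRNA-Ctrl and had 0 calls of 6 with shRNA-cFos. Their summed level went from 1942 to 1549 and from 1338 to 1317, while Reln rose in both. With overexpression 0 of 8 rose and 3 fell, with a median of -0.22 and a sum of 1814 to 1492, beside the uncalled -0.20 of Reln. Astrocyte markers, beside Slc6a11 and Abat, rose for 3 and fell for 0 of 10 with shRNA-Ctrl and rose for 4 and fell for 2 with shRNA-cFos. Their summed levels were 109475 to 110501 and 85385 to 94967, and their medians 0.10 and -0.06. The difference of the astrocyte marker responses, shRNA-cFos minus shRNA-Ctrl, was called higher for 2 of 10 and lower for 4, with a median of -0.12. With overexpression 3 rose and 1 fell, from 106780 to 122720, while Abat was lower. Striatal markers, of another region rich in Gad1 and the Dlx genes, had 0 calls of 5 with shRNA-Ctrl, and 1 higher and 1 lower with shRNA-cFos. Their summed level went from 453 to 517 with shRNA-Ctrl and from 276 to 314 with shRNA-cFos, each on its own normalization. With overexpression 1 was higher, and the sum went from 380 to 632. Thalamic markers fell for 1 of 5 with shRNA-Ctrl, 0 of 4 with shRNA-cFos and 2 of 5 with overexpression, and 0 rose. Their sums went from 1452 to 1223, from 1026 to 1055 and from 1355 to 943. CA pyramidal markers rose for 0 and fell for 1 of 11, rose for 3 and fell for 1 of 10, and rose for 0 and fell for 1 of 11. Their sums went from 11926 to 11598, from 8955 to 10593 and from 12177 to 10194.

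Markers of other cells moved beside the interneuron and synthesis genes as well. With shRNA-Ctrl, microglial markers rose for 7 of 8, endothelial markers for 4 of 6 and markers of oligodendrocyte precursors for 4 of 5, and none of these fell, according to the authors' deposited table. With shRNA-cFos the same lists had 1 higher and 4 lower, 1 higher and 0 lower, and 0 higher and 1 lower, and with overexpression 5 and 0, 0 and 3, and 0 and 0. The summed microglial level went from 7406 to 9714, from 6524 to 5452 and from 5990 to 7991 in the 3 comparisons of the authors' deposited tables. Immature neuron markers rose for 2 of 6 with shRNA-Ctrl, 4 with shRNA-cFos and 4 with overexpression, and 0 fell, in the authors' deposited tables. The part of these and the other marker lists in the member values was not tested.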

How the data were processed

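RNA was sequenced from 18 dentate gyrus libraries, grouped by sample title. The tools named in the submitters' processing notes are TopHat2 and DESeq2, and the build is mm9, while tool versions, the counting tool and its strand setting are not given there. Per the file headers, each of the 3 tables holds the authors' mean normalized count (a signal value, counts over size factors), log2 fold change with its standard error, Wald score, p-value and adjusted p-value. The deposited tables hold 0 columns of values per library, so the depth of a library is unknown and precision is that of the authors' standard errors (median 0.11, 0.12 and 0.12 for shRNA-Ctrl, shRNA-cFos and overexpression). The plan for counts per library in the design was therefore not used, and the deposited test was.

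The deposited log2 fold changes were shrunken toward 0, as their standard errors show, which reach at most 0.29, 0.26 and 0.20. For each table a normal prior centred on 0, with a standard deviation of 0.59, 0.53 and 0.41, was removed algebraically for the level estimates, which leaves the Wald score of a comparison unchanged. Genes with errors near these limits, such as Fos, Gabra3 and Dlx6 with overexpression, have uncertain levels. In the deposited overexpression file 27 rows carried a date in place of a gene symbol and were left out.

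The difference of responses was divided by its standard error (variances of both tables added) and compared with a normal distribution, 2-sided, with adjustment after Benjamini and Hochberg over 14386 genes (Python 3.11.15, SciPy 1.17.1), after a check on simulated data. Levels across hairpin tables were shifted by the median log2 E0 ratio (-0.43) of the 12406 genes whose mean reached 50 in each.

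All members are named. Of each other list at most 4 called genes with the largest changes per comparison are named, and Nlgn2 was added after its values were seen. The members and lists were chosen with earlier results of these data known. Alternatives were an adjusted p of 0.01, a 1.5-fold minimum, a mean of at least 50, centring on the median of all genes, removal of the prior, and no shift of levels. Sequences are from RefSeq GRCm38.p6 and exon overlaps from GENCODE M21; no coordinate was converted between builds.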

Additional observations from a re-analysis of the deposited data

Results flagged for a closer look

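These genes were flagged because their E1 response, the log2 fold change from E0 to E1, differed between the hairpins. The difference itself was tested, computed from the authors' deposited tables. Such a difference was called for 22.2% of the 27 members, against 23.8% of the 14386 genes tested with both hairpins. These calls were thus no more frequent among the members than among genes at large. The response with shRNA-cFos was higher than with shRNA-Ctrl for Gabra4 (0.95), Gabbr2 (0.72), Gabra5 (0.61), Slc6a11 (0.57) and Abat (0.53). It was lower for Gabra3 (-0.74) and for Fos (-1.03). For Gabra4, Gabbr2 and Gabra5 the response was called in opposite directions with the hairpins. Slc6a11 and Abat were not called with shRNA-Ctrl, at -0.14 ± 0.10 and -0.02 ± 0.07, and were called higher with shRNA-cFos, at 0.42 and 0.51.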

How the results depend on the processing

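Called members numbered 11 with shRNA-Ctrl, 13 with shRNA-cFos, 5 with overexpression and 6 for the difference of responses. A fold minimum of 1.5 left 2, 2 and 1 of the first 3 counts, and an adjusted p of 0.01 left 3 with overexpression, while a mean of at least 50 gave 6 there, with Gabra2 as a higher member. The 6 differences stayed at 6 under each alternative but the 1.5-fold minimum, which left 4. The fold minimum was applied to shrunken values. With the prior removed the difference of Slc6a11 was 0.5855, just above that minimum, so this count depends on the shrinkage. At an adjusted p of 0.01 the calls lost were Gabra5, Gad1 and Gad2 with shRNA-Ctrl, Gabra5, Gabrb2 and Lhx6 with shRNA-cFos, and Slc32a1 and Abat with overexpression. Of 81 log2 fold changes, centring on the median of all genes turned the sign of 1, Gabra2 with shRNA-Ctrl (-0.0031 against 0.0040). Removal of the prior multiplies each of them by a positive factor, so it could turn no sign and is no check of direction. Over 25 members, levels with shRNA-cFos relative to shRNA-Ctrl had a median log2 ratio of 0.02 at E0 and 0.15 at E1, but of -0.41 and -0.29 without the shift of levels, so it has no firm sign. No paired analysis was possible because the deposited tables hold no value per library. For the same reason no replicate was left out, and no other count model was run.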
